A study of Mus musculus with 12 samples.

Results

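The 37 genes described here are antiviral genes that type I and type III interferons switch on, taken by gene symbol from a list of names. All 37 were found in the deposited table of 55891 genes, 1 row each. The rows were matched by name and not by a value, but the genes were chosen with earlier results of these data known. Of these genes, 34 had at least 1 TPM in at least 6 libraries and were tested with the 12605 genes that passed the same filter. TPM is transcript abundance per gene length, scaled to a fixed total per library. Oas2, Ifit3b and Ifi44 did not pass and are given as values only. Transcripts were measured by mRNA sequencing of mucosa scraped from the mouse ileum at baseline, 1 library per mouse. The groups were 6 ERBB3-dIE mice (3 of litter B and 3 of litter A) and 6 Erbb3-FF mice (2 of litter B and 4 of litter A). The Erbb3 product is a receptor for neuregulins. The labels name the genotypes by these codes and do not give a Cre driver, a strain or an age. A scraping mixes epithelium with connective tissue and immune cells, so fewer cells of a type and less RNA per cell cannot be told apart.

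Interferons of type I (alpha and beta) and type III (lambda) bind different receptors and signal through the same kinases to a complex that includes Stat2 and Irf9. That complex binds the interferon-stimulated response element in the promoters of its target genes. In the gut, the receptor for interferon lambda is held mainly by epithelial cells, and a low, patchy level of these transcripts is known from healthy mouse intestine. Interferon gamma acts at a different DNA element, the gamma-activated site, and has a partly separate set of targets.

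Erbb3 was not called lower in the mice labelled ERBB3-dIE, at 162, 206, 156, 105, 104 and 120 TPM in mice 1 to 6, against 136, 151, 110, 98.4, 87.3 and 120 TPM in Erbb3-FF mice 1 to 6 (log2 difference 0.16, SE 0.11, adjusted p = 0.402). A value per gene does not show a deleted exon, and the labels do not give the deleted part, so this level does not check the genotype labels. The ileal genes Fabp6 and Slc10a2 and the epithelial gene Epcam were present in every library. Fabp6 split by litter, at 27010 to 36208 TPM in litter B and 6460 to 10690 TPM in litter A, except that Erbb3-FF mouse 3, labelled litter A, was at 45972 TPM. Its part in the litter results was not tested. Epcam was at 1190 to 1868 TPM in ERBB3-dIE and 1373 to 2280 TPM in Erbb3-FF mice. Several libraries stood apart. Smooth muscle transcripts were highest in ERBB3-dIE mice 4 and 5, Erbb3-FF mice 1 to 3 had far more B cell transcripts than the rest, and ribosomal sequence took 10.2% and 10.8% of TPM in Erbb3-FF mice 5 and 6. Without ERBB3-dIE mice 4 and 5, the genotype fit called 1 of the antiviral genes higher (Zbp1) and 0 lower, and without Erbb3-FF mice 5 and 6 it called 1 lower (Samd9l). Of all tested genes, the first of these fits called 43 higher and 65 lower and the second 83 higher and 368 lower. With all libraries the counts were 209 and 467.

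Promoter sequences were searched for the element. RefSeq windows from 250 bases before to 50 bases after the annotated start (build GRCm38.p6) were at hand for 28 of the 37 genes. They were searched on both strands for the core GAAANNGAAA. A match was present in 15 of the 28 genes, or 53.6%, against 3.99% of all 27025 genes with a window. Of the antiviral genes called by genotype or litter and with a window, only Apol9a and Apol9b held one. The core of the gamma-activated site, TTCNNNGAA, was present in 4 of the 28 (14.3%: Bst2, Ifi35, Ifit2 and Oas1a) and in 9.55% of all genes. In Bst2 this match overlapped a match to the first core. These are matches of letters and not measured binding. Shown are the 250 bases before the start of Apol9b, whose transcript was called lower in ERBB3-dIE mice, and of Apol9a, its near copy. They run 5′ to 3′ along the gene's strand with the matches in capitals. They lie at chr15:77728822-77729071 on the plus strand and chr15:77411081-77411330 on the minus strand, before the first of the starts listed for each gene.
Apol9b: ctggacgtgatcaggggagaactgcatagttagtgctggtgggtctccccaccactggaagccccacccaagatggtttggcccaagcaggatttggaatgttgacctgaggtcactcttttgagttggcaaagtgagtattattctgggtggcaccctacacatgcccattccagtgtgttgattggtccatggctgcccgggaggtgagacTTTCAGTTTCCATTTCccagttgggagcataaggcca
Apol9a: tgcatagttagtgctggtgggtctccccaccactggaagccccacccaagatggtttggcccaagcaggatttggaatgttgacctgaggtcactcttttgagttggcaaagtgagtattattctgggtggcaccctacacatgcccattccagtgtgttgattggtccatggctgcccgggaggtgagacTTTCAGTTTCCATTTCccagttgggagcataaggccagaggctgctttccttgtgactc

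Both promoters hold the core at overlapping positions that together read as 1 run on the other strand. In Apol9b the run begins 37 bases before the start and in Apol9a 59 bases before it. The 2 windows shared a stretch of 228 bases with no mismatch.

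Of the other genes with a match, the 5 with the highest mean TPM were Isg15, Ifit1, Oas1a, Ifih1 and Oas1g. Their stretches around the matches show how the core is spaced from gene to gene. They were taken from chr4:156200865-156200906 (minus strand), chr19:34640775-34640823 (plus), chr5:120907520-120907555 (minus), chr2:62646206-62646233 (minus) and chr5:120887606-120887641 (minus).
Isg15: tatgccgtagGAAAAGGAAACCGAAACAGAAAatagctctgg
Ifit1: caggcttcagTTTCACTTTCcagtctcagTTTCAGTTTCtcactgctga
Oas1a: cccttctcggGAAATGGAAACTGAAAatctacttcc
Ifih1: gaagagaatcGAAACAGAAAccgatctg
Oas1g: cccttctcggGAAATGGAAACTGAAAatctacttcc

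Isg15 had 3 overlapping matches that begin 78, 72 and 66 bases before its start. Ifit1 had 2 separate matches on the other strand, beginning 104 and 85 bases before the start. Oas1a and Oas1g had the same letters in this stretch. The match in Ifih1 lay after its annotated start. No match was found in the windows of Irf7, Irf9, Oasl1, Oasl2, Ifit2, Herc6, Dtx3l, Cmpk2, Ifi44, Ifi35, Xaf1, Samd9l and Lgals3bp. No window was at hand for Zbp1, Dhx58, Oas2, Usp18, Parp9, Parp14, Mx1, Mx2 and Rtp4.

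**Figure D1:**
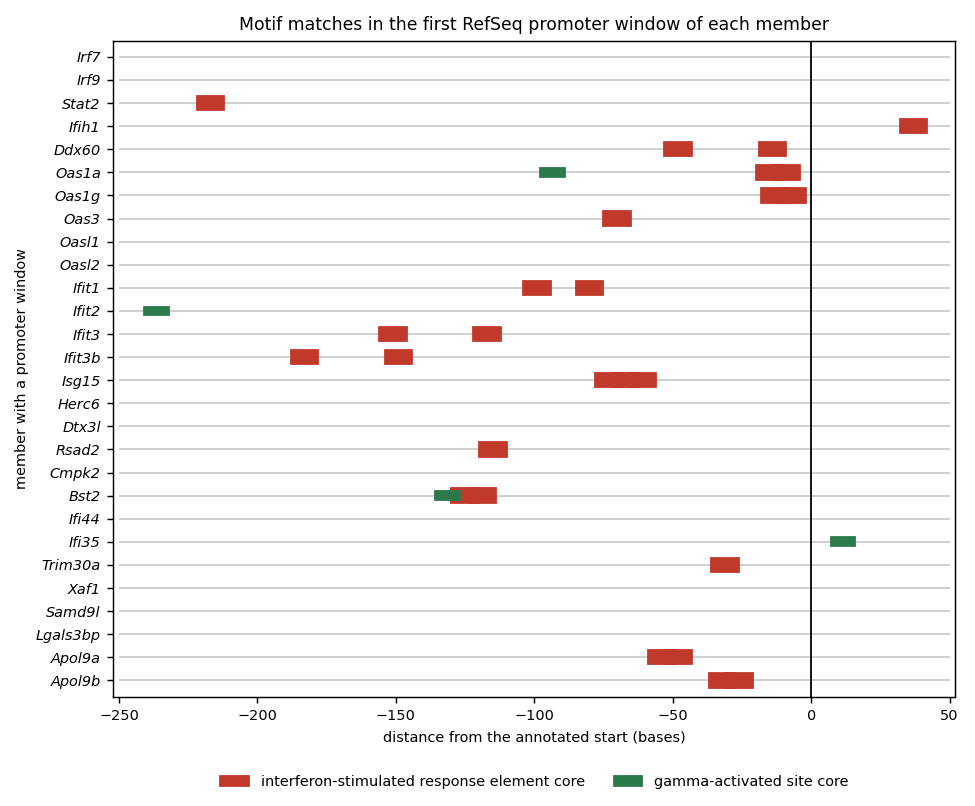
Each grey line is the RefSeq promoter window of 1 gene, plotted by distance from the annotated start in bases. Red boxes mark the interferon-stimulated response element core and green boxes the gamma-activated site core. The red boxes of Apol9a, Apol9b, Bst2, Isg15, Oas1a and Oas1g touch because their matches overlap, and that of Ifih1 lies after the start.

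Reads of near copies are hard to assign. In GENCODE M21 transcripts (GRCm38), 47.9% of the 75-base windows of the longest coding transcript of Apol9a, the length of the reads, also occurred in Apol9b, and 41.6% of those of Apol9b in Apol9a. The shares were 47.6% for Oas1a and 44.6% for Oas1g with each other, and 41.1% for Ifit3 and 35.7% for Ifit3b. Herc6 shared 22.4% with the predicted gene Gm45193 and Rtp4 12.4% with Gm45338. How far this sharing affects the values of these 8 genes was not measured. The other 29 shared at most 5.44%, and 21 of them shared none.

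Lgals3bp, a secreted glycoprotein gene, had the highest mean over the 12 libraries (144 TPM), followed by Irf7 (100.4 TPM), Ifi35 (57.0 TPM) and Parp9 (49.2 TPM). The lowest were Ifit3b (1.14 TPM), Oas2 (0.856 TPM) and Ifi44 (0.469 TPM). The interferon genes themselves were barely present. Ifnb1, the 5 interferon alpha genes examined, Ifnl2 and Ifnl3 were listed at 0 in all libraries. Ifne and Ifnk were above 0 in 1 library each, at 0.178 and 0.155 TPM.

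ERBB3-dIE minus Erbb3-FF was the main comparison, fitted with litter as a second term. Among the 34 tested genes, 2 fell in ERBB3-dIE mice (Apol9b and Samd9l) and none rose. The limma fit called 3.70% of all tested genes lower and 1.66% higher, so 2 of 34 lower is near that background. At an unadjusted p under 0.05, 5 of the 34 were higher and 3 lower, where 8.71% and 13.1% of all tested genes were. The authors' deposited table had 4 of them higher (Zbp1, Herc6, Bst2 and Ifit2) and 3 lower (Apol9b, Samd9l and Cmpk2), and it called 5.07% of all its genes higher and 7.51% lower. The median log2 difference of the 34 was 0.02, on the log2(TPM + 0.5) scale, against −0.00066 for all tested genes, and 17 were positive. In no tested gene were the ranges of the genotypes apart, which was so for 1.02% (higher) and 1.43% (lower) of all tested genes.

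Apol9b (ENSMUSG00000068246) encodes an apolipoprotein L that interferon induces. In litter B it had 30.4, 26.6 and 18.5 TPM in ERBB3-dIE mice, against 59.0 and 53.8 TPM in Erbb3-FF mice. In litter A it had 0.756, 3.31 and 2.83 TPM in ERBB3-dIE mice, against 41.6, 8.41, 8.62 and 15.9 TPM in Erbb3-FF mice. Within each litter every ERBB3-dIE mouse was below every Erbb3-FF mouse, while over both litters the genotypes overlapped. The log2 difference was −2.02 (SE 0.45, adjusted p = 0.0268). The exact 2-sided permutation test over all 12 libraries, which takes no account of litter, gave p = 0.123. In the 12 fits that each left out 1 library the difference ran from −2.20 to −1.67, and the call was kept in 6 (adjusted p 0.0171 to 0.0598). It was lost without ERBB3-dIE mouse 3, 4, 5 or 6 and without Erbb3-FF mouse 1 or 6. In the fit without a litter term it was lost as well.

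Apol9a (ENSMUSG00000057346), its near copy, was not called, with a log2 difference of −0.54 (SE 0.35, adjusted p = 0.403). The sum of both genes depends less on how their reads were split, though TPM divides by the length of each gene's transcripts. That sum was 76.5, 50.8 and 46.1 TPM in ERBB3-dIE mice of litter B, against 101 and 79.2 TPM in Erbb3-FF mice. In litter A the sum was 8.16, 10.8 and 11.96 TPM in ERBB3-dIE mice, against 78.8, 22.2, 16.1 and 28.9 TPM in Erbb3-FF mice. The ERBB3-dIE sums lay below the Erbb3-FF sums within each litter.

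Samd9l (ENSMUSG00000047735) encodes a protein that restricts viral translation and cell growth. It had 19.8, 19.7 and 22.6 TPM in ERBB3-dIE mice of litter B and 18.5, 15.6 and 19.2 TPM in those of litter A. In Erbb3-FF mice it had 28.6 and 28.3 TPM in litter B and 29.4, 27.3, 18.5 and 28.3 TPM in litter A. All Erbb3-FF mice but mouse 5, which was at 18.5 TPM, were above all ERBB3-dIE mice. The log2 difference was −0.49 (SE 0.12, adjusted p = 0.0380, exact 2-sided permutation p = 0.0130). The call was kept in 1 of the 12 fits without 1 library, that without Erbb3-FF mouse 5, and in the other fits the adjusted p reached 0.0966.

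**Figure D2:**
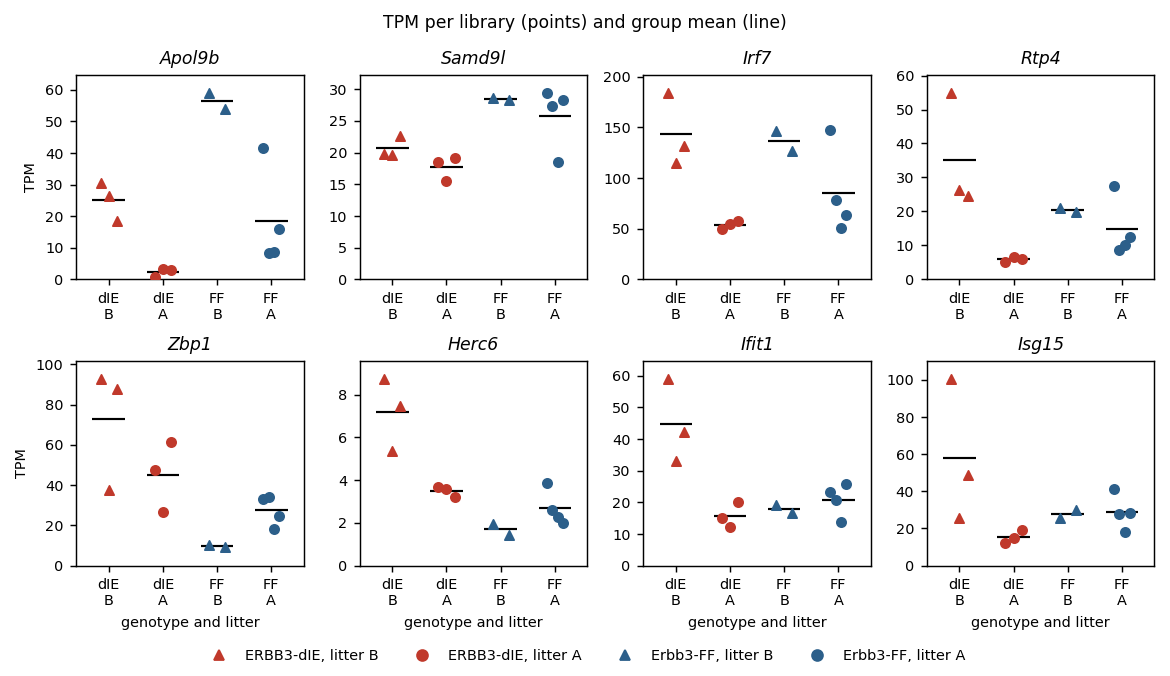
TPM of 8 genes in each library, by genotype and litter, with lines for group means (red, ERBB3-dIE; blue, Erbb3-FF; triangles, litter B; circles, litter A). Apol9b is lower in ERBB3-dIE mice within each litter, and Ifit1 and Herc6 are higher in ERBB3-dIE mice of litter B than in Erbb3-FF mice of litter B.

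Among transcription factors of the pathway, Irf7, the factor that amplifies interferon production, had a log2 difference of −0.30 (adjusted p = 0.511). Irf9 (0.07) and Stat2 (−0.06), the DNA-binding and transactivating parts of the complex, were also not called. Among sensors, Zbp1, which binds Z-form nucleic acid and can start cell death, had the largest positive difference of the 34 (1.53, SE 0.40, 95% interval 0.64 to 2.41, adjusted p = 0.0520). It stood at 92.6, 37.6 and 87.9 TPM in ERBB3-dIE mice of litter B, against 10.1 and 9.07 TPM in Erbb3-FF mice. Litter A had 47.7, 26.7 and 61.4 TPM in ERBB3-dIE mice, against 33.2, 34.0, 18.2 and 24.8 TPM in Erbb3-FF mice, with overlap. It was higher in the authors' deposited table (log2 fold change 1.41, adjusted p = 0.00400). Of the RNA sensors, Ifih1 was at −0.35, Dhx58 at 0.05 and Ddx60 at 0.40, with adjusted p-values from 0.287 to 0.921.

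The OAS genes make the second messenger that activates RNase L, or encode relatives of those enzymes. None of the 5 tested was called, and their differences ran from −0.50 (Oasl1, which in mice limits Irf7 translation) to 0.40 (Oasl2). The IFIT genes encode binders of foreign RNA. Ifit1 (0.29), Ifit3 (0.24) and Ifit2 (0.82) were not called, and Ifit2 was higher in the authors' deposited table (1.16, adjusted p = 0.0242). In the system of Isg15, a ubiquitin-like protein, the log2 difference was −0.15 for Isg15, 0.61 for Usp18, the protease that removes it, and 0.95 for Herc6, its main ligase in mice. Herc6 had an adjusted p of 0.0633 (SE 0.27), and the authors' deposited table gave 1.08 with an adjusted p of 0.00264. Parp9, Dtx3l and Parp14, of which the first pair act as a complex, were at 0.07, 0.16 and 0.15.

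Of the effectors at membranes and in nucleotide metabolism, Bst2, which tethers budding virions, had a difference of 0.58 (SE 0.18, adjusted p = 0.0817). Its values were 22.4, 10.4, 19.3, 16.1, 13.2 and 16.4 TPM in ERBB3-dIE mice 1 to 6 and 14.0, 9.85, 10.6, 9.001, 10.4 and 8.04 TPM in Erbb3-FF mice 1 to 6. In litter A all 3 ERBB3-dIE mice were above all 4 Erbb3-FF mice, the single gene of the 34 so placed, where 11.7% of all tested genes were. Cmpk2, a mitochondrial nucleotide kinase gene, was at −0.93 (adjusted p = 0.121) and its neighbour Rsad2, whose product makes a chain-terminating nucleotide, at −0.59. The dynamin-like GTPase genes Mx1 (−0.04) and Mx2 (0.56) were not called. The remaining genes, Ifi35, Trim30a, Xaf1, Rtp4 and Lgals3bp, lay between −0.38 and 0.17, each with an adjusted p of at least 0.605.

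The genotype difference was also read within each litter. In litter B, the 3 ERBB3-dIE mice were above both Erbb3-FF mice for 13 of the 34 genes, where 8.73% of all tested genes were so placed. These were Irf9, Ddx60, Zbp1, Oasl2, Ifit1, Ifit2, Herc6, Parp9, Dtx3l, Parp14, Mx2, Xaf1 and Rtp4. For Samd9l and Apol9b they were below both (23.7% of all tested genes). In litter A, the 3 ERBB3-dIE mice were below all 4 Erbb3-FF mice for 5 genes, Ifih1, Oas1g, Cmpk2, Rtp4 and Apol9b, where 7.42% of all tested genes were. Fitted alone, litter B had a median of 0.43 over the 34 and litter A one of −0.26, and neither fit called any of them. Over all 12605 tested genes the medians were −0.10 in litter B and 0.08 in litter A. Few of these were called, 6 higher and 9 lower in litter B and 4 higher and 2 lower in litter A.

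The difference between the litters in the effect of genotype was tested as an interaction. limma called none of the 34 and 0 of all 12605 genes (0% in each direction). At an unadjusted p under 0.05, 13 of the 34 and 218 of all tested genes had a positive interaction, meaning a more positive genotype difference in litter B. The median was 0.67 for the 34 and −0.15 for all tested genes, and 33 of the 34 were positive, against 33.7% of all tested genes. Median-ratio scaling shifted both medians, to 0.88 for the 34 and 0.07 for all tested genes. Some other lists had a shifted interaction too, and limma called no gene of them. It was positive in 16 of 17 villus enterocyte markers (median 0.72) and 21 of 25 interferon gamma targets (median 0.85). It was negative in all 7 stroma markers (median −2.33, all at an unadjusted p under 0.05), all 9 macrophage and dendritic cell markers (median −1.67, 8 at that p) and all 6 smooth muscle markers (median −2.59). Not every list was shifted. Of 45 other interferon-stimulated antiviral genes tested, 22 were positive, with a median of −0.006. At that p, 7 of these were positive and 4 negative, against 1.73% and 7.58% of all tested genes. Receptor and signalling genes (4 of 9 positive, median −0.03) and genes of sensing and induction (4 of 13, median −0.05) also lay near 0. The part of these lists in the interaction was not tested. The smallest p belonged to Herc6 (1.44, SE 0.35, adjusted p = 0.243) and Ifit1 (1.64, SE 0.40, adjusted p = 0.243), and Zbp1 had the largest value (2.08, SE 0.57, adjusted p = 0.279).

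Ifit1, whose product binds viral RNA ends, had 58.8, 32.9 and 42.2 TPM in ERBB3-dIE mice of litter B, against 19.1 and 16.6 TPM in Erbb3-FF mice. In litter A it had 15.2, 12.2 and 19.96 TPM in ERBB3-dIE mice, against 23.2, 20.6, 13.8 and 25.9 TPM in Erbb3-FF mice. Oasl2 reached 115, 60.8 and 86.6 TPM in ERBB3-dIE mice of litter B, against 37.2 and 38.5 TPM in Erbb3-FF mice. In litter A the Oasl2 values were 28.1, 28.2 and 40.2 TPM in ERBB3-dIE mice, against 44.8, 37.03, 20.2 and 42.4 TPM in Erbb3-FF mice. For both genes the genotypes were apart in litter B and overlapped in litter A.

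A library of litter B stood out. ERBB3-dIE mouse 1 had the highest value of the 12 libraries for 27 of the 37 genes, where it was highest for 9.82% of all tested genes. Isg15 was at 100.2 TPM in this mouse, 25.7 and 48.7 TPM in the other ERBB3-dIE mice of litter B and 25.9 and 29.9 TPM in Erbb3-FF mice of litter B. Without it, the median genotype difference of the 34 was −0.08, and the median interaction was 0.55 with none of the 34 called.

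**Figure D3:**
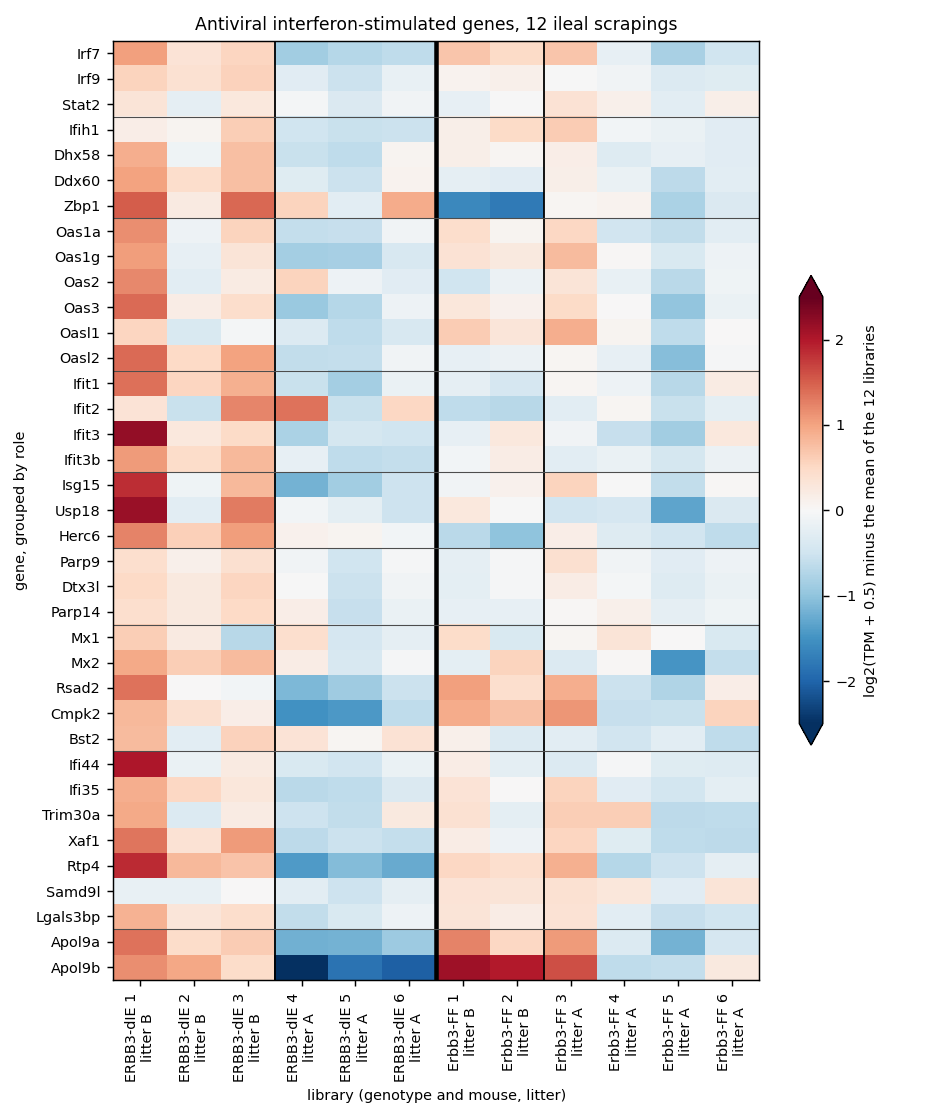
Rows are the 37 genes, columns the 12 libraries, and colour is log2(TPM + 0.5) minus the gene's mean over the libraries. ERBB3-dIE mouse 1 is the reddest column, ERBB3-dIE mice 4 to 6 and Erbb3-FF mouse 5 are mostly blue, and Erbb3-FF mouse 3, of litter A, is redder than the other mice of that litter.

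Litter B minus litter A, fitted with genotype as the second term, gave more calls among these genes than genotype. Of the 34, 7 rose in litter B and none fell, where 7.16% of all tested genes were called higher and 1.40% lower. At an unadjusted p under 0.05, 22 were higher and none lower, where 19.8% and 9.64% of all tested genes were. The median log2 difference was 0.68, against 0.05 for all tested genes, and 32 of the 34 were positive, as were 55.6% of all tested genes. The exceptions were Zbp1 (−0.33) and Ifit2 (−0.25), neither called. Without ERBB3-dIE mice 4 and 5, or without Erbb3-FF mice 5 and 6, none was called, with medians of 0.45 and 0.62. Of all 12605 tested genes, the first of these fits called 0 higher and 0 lower, and the second 4 higher and 3 lower. The labels do not say how the litters differ.

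Both Apol9 genes were among the 7. Apol9b rose by 2.645 (SE 0.45, adjusted p = 0.0164, exact 2-sided permutation p = 0.0189). Apol9a rose by 1.53 (SE 0.35, adjusted p = 0.0293). It had 46.1, 24.3, 27.6, 42.3 and 25.4 TPM in litter B, against 7.41, 7.48, 9.13, 37.2, 13.8, 7.45 and 13.0 TPM in litter A. The sole mouse of litter A inside the range of litter B was Erbb3-FF mouse 3, at 37.2 TPM.

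Rtp4, which dampens interferon responses and restricts flaviviruses, rose by 1.55 (SE 0.38, adjusted p = 0.0362). It had 54.8, 26.2, 24.5, 21.1 and 19.8 TPM in litter B, against 5.15, 6.68, 5.87, 27.6, 8.73, 10.1 and 12.5 TPM in litter A. Irf7 rose by 1.101 (SE 0.24, adjusted p = 0.0274) and averaged 141 ± 26.7 TPM in litter B (SD, n = 5) and 71.7 ± 34.6 TPM in litter A (SD, n = 7). Erbb3-FF mouse 3 was again the highest of litter A for both genes, with 147 TPM of Irf7. Cmpk2 rose by 1.201 (adjusted p = 0.0471) and Lgals3bp by 0.72 (adjusted p = 0.0368).

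Irf9 rose by 0.58 (SE 0.12, adjusted p = 0.0258), the smallest of the 7 changes. It had 27.6, 24.6 and 28.1 TPM in ERBB3-dIE and 19.8 and 20.6 TPM in Erbb3-FF mice of litter B. In litter A it had 15.3, 12.7 and 16.4 TPM in ERBB3-dIE and 18.6, 17.6, 14.7 and 15.1 TPM in Erbb3-FF mice. The litters did not overlap for this gene, the only such gene among the 34 tested (1.90% of all tested genes were higher without overlap and 0.246% lower), and its exact 2-sided permutation p of 0.00126 is the smallest that 5 against 7 libraries can give.

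The litter difference was also read within each genotype. Among ERBB3-dIE mice, all 3 of litter B were above all 3 of litter A for 24 of the 34 genes, where 17.3% of all tested genes were. Among Erbb3-FF mice, both of litter B were above all 4 of litter A for 3 genes (Irf9, Usp18 and Apol9b, 17.9% of all tested genes) and below them for 3 (Zbp1, Ifit2 and Herc6, 3.36%). The interaction above is the test of this difference and called no gene. The 3 genes higher among Erbb3-FF mice depend on Erbb3-FF mouse 3, of litter A. Rtp4 was at 27.6 TPM in that mouse, 21.1 and 19.8 TPM in litter B and 8.73, 10.1 and 12.5 TPM in the rest of litter A. Irf7, Lgals3bp, Cmpk2 and Apol9a were also kept from this placing by that mouse alone. Without it Ifit1 and Oasl2 still overlapped, and the 3 lower genes stayed lower. No count was made without it within Erbb3-FF mice.

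The counts for litter shifted with Erbb3-FF mouse 3. Its label is litter A, and it was above the other 6 mice of litter A for 25 of the 37 genes, where 27.2% of all tested genes were. Without it, 18 of the 34 genes were called higher in litter B, while the count over all 12605 tested genes was 1982, against 902 with it. Of the 34, 10 had litters that did not overlap, where 8.09% of all tested genes were higher without overlap and 2.76% lower. With it, the counts among the 34 were 7 and 1. The genotype fit without it called Herc6 and Zbp1 higher and Apol9b lower, with 203 higher and 411 lower of all tested genes. The median interaction was then 0.53 with none of the 34 called, where 3 of all tested genes were called higher and 33 lower. Whether its litter label is right could not be checked from these files, and each value by litter rests on that label. In fits without another library the count fell to 1 (without ERBB3-dIE mouse 1, 4, 5 or 6), 2 (without ERBB3-dIE mouse 2 or Erbb3-FF mouse 1, 4 or 6), 3 (without Erbb3-FF mouse 5), 4 (without ERBB3-dIE mouse 3) and 5 (without Erbb3-FF mouse 2). The count over all tested genes fell in these fits as well. It ran from 97 (without ERBB3-dIE mouse 1) to 604 (without ERBB3-dIE mouse 3), against 902 with all libraries. Apol9b was called in each of the 12 fits without 1 library. The mouse also stood apart from the rest of litter A in marker sums, given beside the lists.

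**Figure D4:**
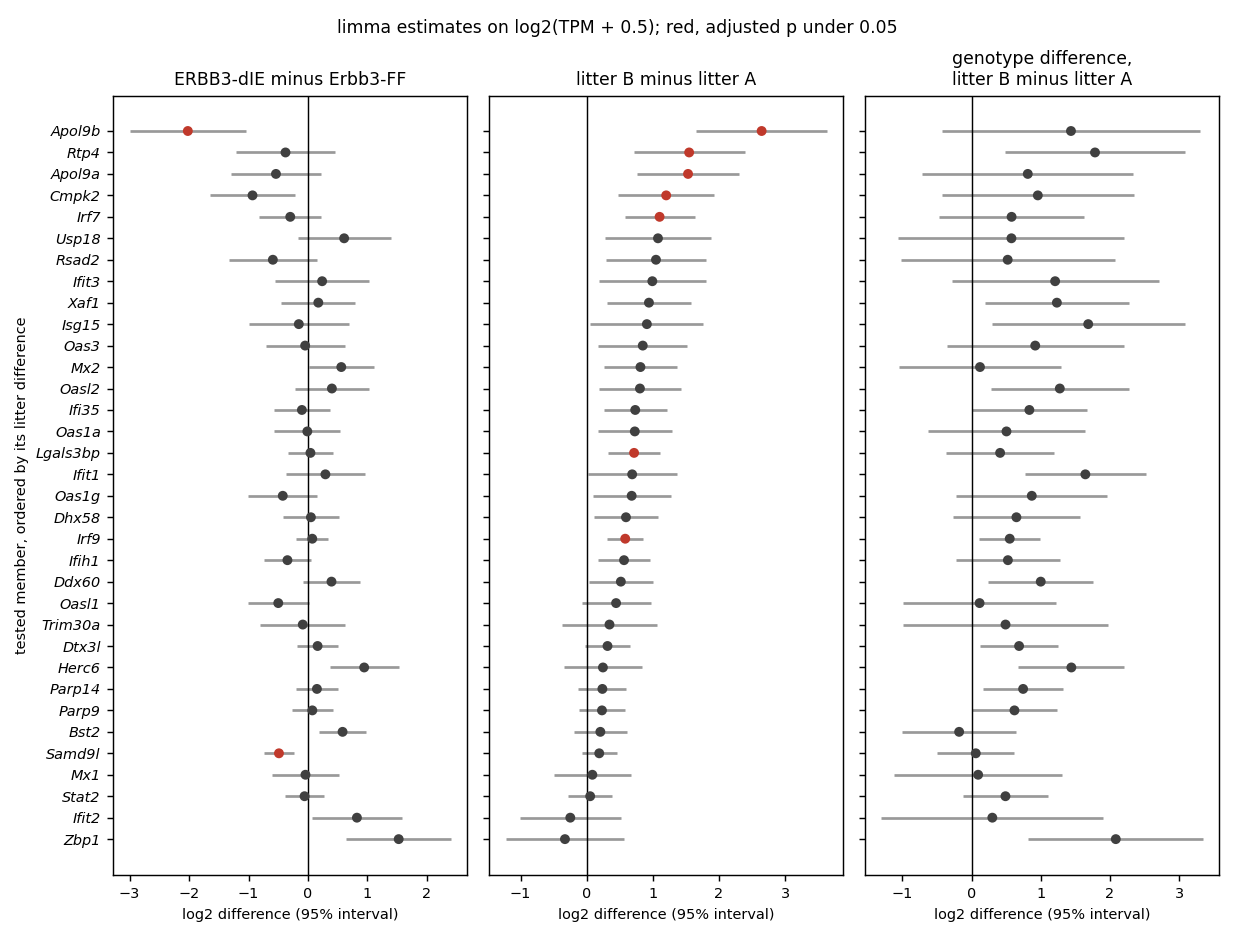
Points are limma log2 differences of the 34 tested genes with 95% intervals, for genotype (left), litter (middle) and the interaction (right), with called genes in red. Genotype differences lie on both sides of 0 with 2 called, while 32 of 34 litter differences and 33 of 34 interaction values lie above 0.

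Other genes of the pathway were taken from lists. Of 9 receptor and signalling genes, 3 fell with genotype: Jak2 (−0.71), Il10rb, a chain of the interferon lambda receptor (−0.46, 56.8 ± 7.68 TPM in ERBB3-dIE and 75.5 ± 18.6 TPM in Erbb3-FF mice, SD, n = 6 each), and Ifngr1 (−0.40). At an unadjusted p under 0.05 6 were lower, and 5 in the authors' deposited table. In litter B 2 rose, Ifngr1 (0.46) and Il10rb (0.44). Ifnlr1, the other chain of that receptor, stood at 4.21 to 7.36 TPM in ERBB3-dIE and 5.68 to 9.25 TPM in Erbb3-FF mice. Of 13 tested genes of sensing and induction none was called by genotype in limma (2 lower at an unadjusted p under 0.05, none in the authors' deposited table), and Ticam1 had the smallest p (−0.31, adjusted p = 0.141). Mavs, the adaptor of the RNA sensors, rose in litter B (0.38). Of 11 negative regulators limma called none by genotype (1 higher and 2 lower at an unadjusted p under 0.05, 2 lower in the authors' deposited table) and none by litter (2 higher at an unadjusted p). Usp25 had the smallest genotype p (−0.35, adjusted p = 0.0523) and Ptpn6 the smallest litter p (0.81, adjusted p = 0.0679).

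A further list held 59 other interferon-stimulated antiviral genes, of which 45 were tested. With genotype 3 rose and none fell: Gbp3 (0.96), Phf11d (0.95) and Trim21 (0.39), where 1.66% and 3.70% of all tested genes were called. At an unadjusted p under 0.05, 11 were higher and 4 lower (8.71% and 13.1% of all tested genes). The authors' deposited table had 9 higher and 2 lower (5.07% and 7.51% of all its genes). In litter B 6 rose, among them Ifi27l2b (1.5002), Sp100 (1.33) and Ifi27 (1.16), and Isg20 fell (−0.94). Of all tested genes 7.16% rose and 1.40% fell. At an unadjusted p under 0.05, 14 were higher in litter B and 4 lower (19.8% and 9.64% of all tested genes). The medians were −0.02 for genotype and 0.29 for litter.

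Targets of interferon gamma are set beside these. Of 25 tested, 11 rose with genotype and none fell, led by Ubd (3.62), Iigp1 (1.95) and Tgtp2 (1.89), with a median of 1.22. At an unadjusted p under 0.05 21 were higher, as were 21 in the authors' deposited table. None was called by litter in limma (none at an unadjusted p under 0.05). Their summed level was 599 to 2310 TPM in ERBB3-dIE and 429 to 648 TPM in Erbb3-FF mice. The summed level of the 37 antiviral genes was 531 to 1639 TPM in ERBB3-dIE and 540 to 1135 TPM in Erbb3-FF mice. The difference between these lists was not tested. Ifng was at 0 to 1.78 TPM in ERBB3-dIE and 0 to 0.354 TPM in Erbb3-FF mice.

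Markers of the cells in a scraping were also read by genotype and litter, and the lists differed in which of them had called genes. Of 17 tested markers of villus enterocytes, the absorptive cells, 11 fell with genotype (among them Nt5e by 2.70, Ada by 2.39 and Mme by 2.01) with 14 lower at an unadjusted p under 0.05 and 13 in the authors' deposited table, and 9 rose in litter B (Slc2a2 2.39, Mme 2.00 and Sis 1.90 the largest). The summed level of the 18 markers was 13534 to 20084 TPM in ERBB3-dIE and 22926 to 23204 TPM in Erbb3-FF mice of litter B. In litter A it was 5630 to 7537 TPM in ERBB3-dIE mice and 11889 to 13554 TPM in Erbb3-FF mice 4 to 6, with Erbb3-FF mouse 3 at 28140 TPM. Within each litter the ERBB3-dIE sums were thus lower, as were those of Apol9a and Apol9b. The list of enterocyte markers was drawn up with earlier results of these libraries known. Its part in the results was not tested.

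Crypt and cycling cell markers (10) ranged from 222 to 583 TPM in ERBB3-dIE and from 166 to 501 TPM in Erbb3-FF mice, lowest in Erbb3-FF mouse 3. limma called none of them by genotype (1 higher at an unadjusted p under 0.05, and likewise in the authors' deposited table) and none by litter (6 lower at an unadjusted p). The summed B cell markers (9) lay between 5.94 and 17.4 TPM in ERBB3-dIE mice. They reached 323, 147 and 126 TPM in Erbb3-FF mice 1, 2 and 3 and lay between 4.71 and 8.604 TPM in Erbb3-FF mice 4 to 6. limma called neither of the 2 tested (1 lower at an unadjusted p under 0.05, 3 of the list lower in the authors' deposited table). Without Erbb3-FF mice 1 to 3, a fit added after the data were seen, none of the 34 antiviral genes was called by genotype. Of all 12605 tested genes, that fit called only 14 higher and 21 lower, and it held no Erbb3-FF mouse of litter B. Of 13 markers of T cells and intraepithelial lymphocytes 4 rose with genotype, Gzma (1.83), Ccl5 (1.62) and Cd7 (1.39) the most, with 10 higher at an unadjusted p under 0.05 and 9 in the authors' deposited table. That list summed to 206 to 746 TPM in ERBB3-dIE and 128 to 237 TPM in Erbb3-FF mice, with ERBB3-dIE mouse 1 the highest.

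Smooth muscle markers (9) summed to 46.9 to 171 TPM in ERBB3-dIE and 66.4 to 109 TPM in Erbb3-FF mice, highest in ERBB3-dIE mice 4 and 5. Of 6 tested, Mylk fell with genotype (−0.56), while the other 5 had differences from 0.05 to 0.29 and were not called. Plasma cell markers (7) summed to 332 to 973 TPM in ERBB3-dIE and 312 to 629 TPM in Erbb3-FF mice, and Fkbp11 rose with genotype (0.98) and fell in litter B (−0.94). Macrophage and dendritic cell markers (13) summed to 62.9 to 124 TPM in ERBB3-dIE and 53.7 to 282 TPM in Erbb3-FF mice, stroma (9) to 26.7 to 127 TPM in ERBB3-dIE and 24.7 to 116 TPM in Erbb3-FF mice, and endothelium (7) to 3.65 to 11.2 TPM in ERBB3-dIE and 2.87 to 10.95 TPM in Erbb3-FF mice. limma called none of these 3 lists' genes by genotype or litter. A single stroma gene was lower with genotype at an unadjusted p under 0.05, and likewise in the authors' deposited table. Siglech, which marks plasmacytoid dendritic cells, a source of type I interferon, was at 0.113 to 0.599 TPM in ERBB3-dIE and 0.142 to 0.537 TPM in Erbb3-FF mice, and the 6 markers of these cells summed to 4.95 to 13.7 TPM in ERBB3-dIE and 4.67 to 43.5 TPM in Erbb3-FF mice, with none of 2 tested called by limma at either p. No marker of these cell types was at 0 in every library. The part of any of these cells in the results was not tested.

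**Figure D5:**
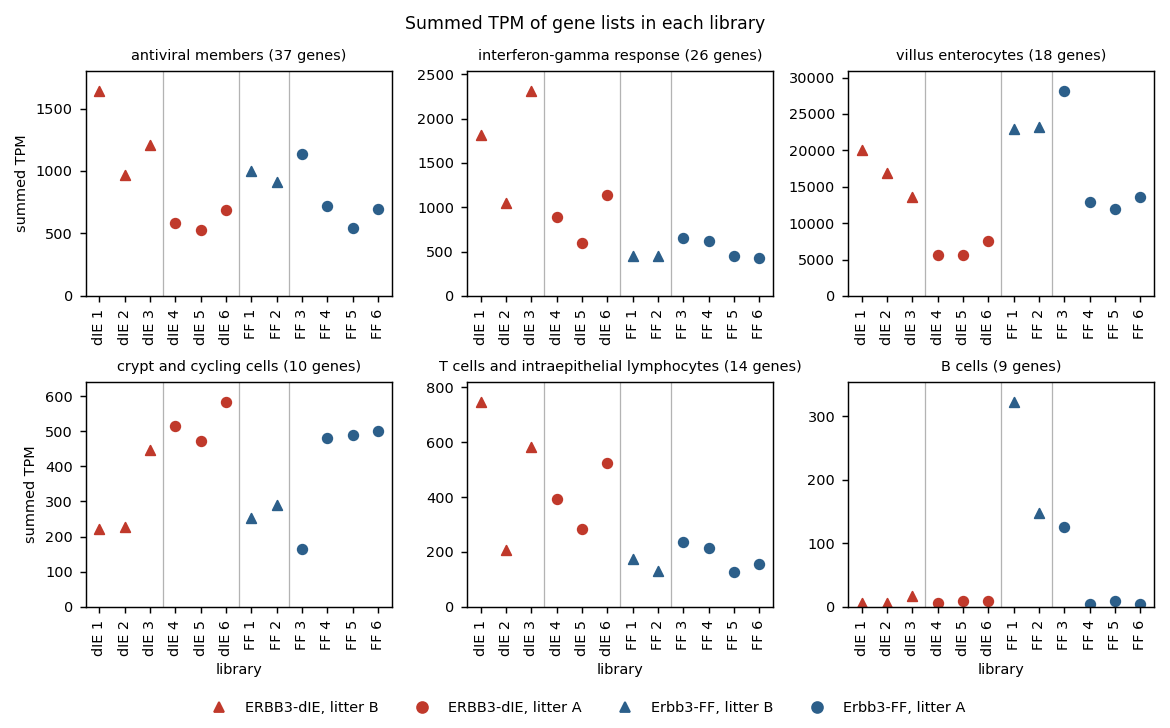
Summed TPM per library of the 37 antiviral genes and of 5 lists, with ERBB3-dIE in red, Erbb3-FF in blue, litter B as triangles and litter A as circles. Interferon gamma targets are higher in most ERBB3-dIE mice, and Erbb3-FF mouse 3 lies apart from the other litter A mice in the antiviral, villus, crypt and B cell sums.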

How the data were processed

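Per the labels' protocols, RNA was extracted from scraped ileal mucosa and sequenced as single-end reads of 75 bases from strand-marking mRNA libraries. Per the submitters' processing notes, Salmon 1.10.0, DESeq2, CASAVA and build GRCm39 were used. The authors deposited TPM per gene and library, summing to 1000000, so the number of reads is unknown and their depth sets no interval here. The authors also deposited a log2 fold change and a p-value with its adjusted value per gene. Which covariates that test used is not stated in the labels.

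No count model was fitted, as TPM are not counts. Testing was limited to genes reaching 1 TPM in 6 or more libraries and used log2(TPM + 0.5) with limma 3.58.1 in R 4.3.3 (variance trend, litter and genotype as terms, Benjamini-Hochberg over 12605 genes, threshold 0.05). Interaction came from a second model. Adjusted p-values are limma's unless named otherwise. Steps were tested on simulated data. The genes, lists and tests were chosen with earlier results of these data known, and 1 pathway gene is not reported here. Beside the 37 genes and any whose groups did not overlap, names were taken per list as up to 3 called genes by size, else that with the smallest p. Promoters were printed for called genes with a match and the 5 highest-expressed others with a match. Erbb3, Fabp6, Slc10a2, Epcam, Ifnlr1 and Siglech were named after earlier results were known. Alternatives covered pseudocount, filter, scaling, variance, weights, litter, mouse number, libraries left out and the authors' test. P-values measure the spread between mice. Promoters are from RefSeq (GRCm38.p6) and were used for sequence alone.

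Mitochondrially encoded genes took 7.94% to 22.1% of TPM, and Mir6236 with Rn18s-rs5 10.2% and 10.8% in Erbb3-FF mice 5 and 6, at most 1.62% elsewhere. Figures were drawn with matplotlib 3.10.9.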

Additional observations from a re-analysis of the deposited data

Results flagged for a closer look

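In each genotype group of 6 mice, the highest and lowest value of each of the 37 genes was compared with its nearest neighbour by Dixon's test at the 95% level. Of 74 groups tested, 6 were flagged, and chance flags about 1 in 20. In ERBB3-dIE mouse 1, Ifit3 was at 30.7 TPM (next 8.99), Rsad2 at 6.94 TPM (next 2.41) and Ifi44 at 2.92 TPM (next 0.484). In Erbb3-FF mouse 5, Oasl2 was at 20.2 TPM (next 37.03) and Samd9l at 18.5 TPM (next 27.3), both low. In Erbb3-FF mouse 3, Parp9 was at 64.1 TPM (next 47.5).

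Rtp4 moved in opposite directions in the litters. Litter B had 54.8, 26.2 and 24.5 TPM in ERBB3-dIE mice, against 21.1 and 19.8 TPM in Erbb3-FF mice. Litter A had 5.15, 6.68 and 5.87 TPM in ERBB3-dIE mice, against 27.6, 8.73, 10.1 and 12.5 TPM in Erbb3-FF mice. The difference between the litters was 1.78 on the log2 scale (SE 0.58) and did not pass the limma interaction test (adjusted p = 0.372).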

How the results depend on the processing

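The 2 genes lower with genotype were 2 with a pseudocount of 0.1 or 1, with 2 TPM as the filter, under the 3 other scalings, robust variance and library weights, 3 with the authors' test, 1 without Erbb3-FF mice 5 and 6, and 0 with no filter, no litter term, litter A or B alone, or without ERBB3-dIE mice 4 and 5 or Erbb3-FF mice 1, 2 and 3. The count higher with genotype (0) was 1 with the filter of 2 TPM, after removal of ribosomal or of mitochondrial sequence and without ERBB3-dIE mice 4 and 5, 3 with library weights and 4 with the authors' test. Leaving out 1 library gave 0 to 2 higher and 0 to 2 lower. The median genotype difference was 0.43 in litter B alone, and −0.08 to 0.13 without 1 library. The 7 genes higher in litter B were 1 with no filter, 3 with median-ratio scaling, 4 without mitochondrial genes, 16 with library weights, 0 without Erbb3-FF mice 5 and 6 or without ERBB3-dIE mice 4 and 5, and 1 to 18 without 1 library. The median litter difference ran from 0.54 to 0.78 in the fits without 1 library and was 0.45 without ERBB3-dIE mice 4 and 5. With no filter, 37 genes of the list and 27814 in all were tested. The cause of the other changes was not tested. No interaction call was made among the 34 in any setting. All 7 litter calls and both genotype calls kept their direction under all alternatives run, while 21 of 32 genes not called by genotype changed sign at least once.

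Mouse numbers are shared by the genotypes, but mouse 3 comes from different litters. Same-numbered mice had correlations of deviations from 0.0739 to 0.357, and 2 of 6 matched best with their own number, so the numbers were not taken as pairs. With mouse number as a block in place of litter, 1 gene was higher (Bst2) and 3 lower (Apol9b, Cmpk2 and Samd9l). Of all genes 217 were then higher and 538 lower, against 209 and 467. Counts over all genes changed by more than 1.5 times for genotype with no filter (105 and 245), no litter term (87 and 156), ribosomal sequence removed (196 and 764), library weights (344 and 736), the authors' test (786 and 1164), litter A alone (4 and 2), litter B alone (6 and 9), and without ERBB3-dIE mice 4 and 5 (43 and 65), Erbb3-FF mice 5 and 6 (83 and 368) or Erbb3-FF mice 1, 2 and 3 (14 and 21, a fit added after the data were seen). For litter, against 902 higher and 176 lower, they did so with no filter (219 and 26), median-ratio scaling (356 and 243), mitochondrial genes removed (343 and 143), library weights (1847 and 903), and without Erbb3-FF mice 5 and 6 (4 and 3) or ERBB3-dIE mice 4 and 5 (0 and 0). Without 1 library the counts ran from 95 to 213 higher and 190 to 621 lower for genotype, and from 97 to 1982 higher and 4 to 1077 lower for litter.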
